A study of Mus musculus with 43 samples.

Results

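Fat cells of the skin form a layer of white fat in the lower dermis. The set described here holds 34 genes that adipocytes use to store, make and release lipid or to signal to other tissues. They were taken by name from the 23256 rows of the deposited table of normalised read counts, and all 34 were found there. All 34 also passed a filter on low values (10 or more in 4 or more libraries), which left 19170 genes to test. By role, 4 genes encode hormones and secreted proteins, 2 transcription factors, 3 lipid droplet proteins and 6 proteins of uptake and transport. A further 7 act in fatty acid synthesis, 6 in triglyceride assembly and 5 in lipolysis, and the last is the carbonic anhydrase gene Car3.

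Back skin of female mice aged 10 to 13 weeks was sequenced as poly-A RNA, giving 43 libraries in 9 groups. The groups cross 3 strains, labelled NZM, iNZM and WT, with 3 regimens of UVB, the medium-wave band of ultraviolet light. The acute regimen was 1 exposure to 300 mJ/cm2, the chronic regimen was 5 exposures to 100 mJ/cm2 on consecutive days, and skin was taken 24 hours after the last exposure. Unexposed mice of each strain received no UVB. Each group held 5 libraries, except the unexposed iNZM and WT groups with 4 each. The series title names NZM2328, a lupus-prone mouse line, while the labels explain neither iNZM nor the strain called WT. In lupus research iNZM usually denotes NZM2328 lacking the receptor for type I interferon. The normalised read count of Ifnar1, which encodes a chain of that receptor, lay between 304 and 579 in the 14 iNZM libraries, between 716 and 1148 in the 15 NZM libraries and between 758 and 1378 in the 14 WT libraries. The labels do not say that each library came from a separate animal, so the p-values below measure only the spread between libraries.

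White adipocytes keep triglyceride in a large lipid droplet coated by perilipin and CIDEC, build it from fatty acids that are taken up or made in the cell, and release it again by lipolysis under adrenergic control. PPARγ, the product of Pparg, and C/EBPα, the product of Cebpa, switch on most of these genes during fat cell differentiation, and insulin and feeding set the rate of synthesis. The dermal fat layer is known to thicken and thin with the hair cycle. Several of the 34 genes also serve other skin cells: sebaceous gland cells make lipid with Fasn, Scd1, Elovl6 and Acaca, the thin muscle beneath the dermal fat uses Slc2a4, Car3, Lpl and Cd36, and capillary endothelium carries Cd36 and Fabp4. In bulk skin, a lower level can mean fewer fat cells or less RNA per fat cell, and these cannot be told apart.

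Library depth ran from 18490000 to 37760000 reads, with a median of 24440000. A group of 9 libraries stood apart by RNA of growing hair follicles. Their score for 22 follicle genes (the mean over the genes of log2(value + 1), centred per gene) lay above 5, while the other 34 libraries lay between -3.56 and 2.55. These 9 were the NZM acute library 5, the iNZM acute libraries 6 and 49, the NZM chronic libraries 17, 55 and 56, and the iNZM chronic libraries 22, 24 and 25. Library 5 was the lowest of its group for 30 of the 34 fat genes, library 55 for 24, library 6 for 22 and library 24 for 16. Library 25 was the lowest for 9, library 49 for 8, library 17 for 6, library 56 for 4 and library 22 for 0. The WT chronic library 58 was also the lowest of its group for 27 of the 34 genes, with a follicle score of 0.10. Further libraries without a high follicle score were the lowest of their groups for many genes. The WT acute library 15 was lowest for 21 and the unexposed NZM library 34 for 18. The unexposed WT library 44 was lowest for 17 and the unexposed iNZM library 37 for 16. Their follicle scores were 2.55, -2.57, 2.52 and -2.86.

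Fat cell RNA was present in all libraries. The defining adipocyte genes Adipoq, Lep, Plin1, Cidec, Retn and Cfd had reads in every one of the 43 libraries, as did the other 28 genes. Their levels covered a wide range, from 52.0 to 11590 normalised reads for Adipoq and from 41.6 to 3850 for Lep. Per kilobase of exon in unexposed WT skin, Car3 was the most abundant of the 34, with a median of 86470 reads per kilobase, followed by Cfd at 46210 and Scd1 at 13180. Fabp4 (7841) and Adipoq (5411) came next on this per-length scale, and Aqp7 was last at 91.6. The ranges of Scd1, 9544 to 33710, and Fabp4, 5633 to 10360, overlapped, so their order does not exceed the spread. Within groups, the standard deviation of log2(value + 1) ran from 0.41 for Cebpa to 1.24 for Lep.

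Promoter sequences were read for the genes on which the results turn. RefSeq promoter windows on GRCm38.p6 (250 bases before to 50 after a start site) were found for 25 of the 34 genes, with 32 windows in all. The 250 bases before the start are shown, 5′ to 3′ on the gene's own strand, for 3 adipocyte genes that were lower in NZM than in WT and carry a C/EBP-type match in a window, Plin1, Lep and Cidec. Adipoq is shown as a fat cell hormone gene without such a match, Pck1 for its fall after acute UVB, and Fasn as a lipid synthesis gene that was called in none of the 19 comparisons with all libraries. Capitals mark matches to TTGCNNAA, the C/EBP-type motif, searched on both strands.
Plin1, chr7:79732777-79733026, minus strand: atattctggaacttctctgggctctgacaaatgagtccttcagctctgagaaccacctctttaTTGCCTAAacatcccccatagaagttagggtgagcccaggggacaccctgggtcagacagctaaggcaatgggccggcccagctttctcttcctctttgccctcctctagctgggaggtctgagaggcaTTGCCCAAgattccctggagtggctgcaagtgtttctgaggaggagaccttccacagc
Lep, chr6:29059971-29060220, plus strand: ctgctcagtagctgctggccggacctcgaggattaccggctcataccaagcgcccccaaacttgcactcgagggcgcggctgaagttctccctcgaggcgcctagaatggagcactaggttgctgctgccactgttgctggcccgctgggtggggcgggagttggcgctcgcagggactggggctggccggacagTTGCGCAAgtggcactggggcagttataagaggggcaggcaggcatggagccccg
Cidec, chr6:113434765-113435014, minus strand: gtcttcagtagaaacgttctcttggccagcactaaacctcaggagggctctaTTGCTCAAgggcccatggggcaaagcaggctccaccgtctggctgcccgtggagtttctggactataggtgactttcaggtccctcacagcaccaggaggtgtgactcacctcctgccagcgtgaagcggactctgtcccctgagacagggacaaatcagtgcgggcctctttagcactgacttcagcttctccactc
Adipoq, chr16:23146286-23146535, plus strand: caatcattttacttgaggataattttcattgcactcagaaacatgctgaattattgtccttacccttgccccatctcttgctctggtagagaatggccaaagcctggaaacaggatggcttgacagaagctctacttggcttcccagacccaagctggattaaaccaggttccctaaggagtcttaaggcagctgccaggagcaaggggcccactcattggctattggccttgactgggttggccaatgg
Pck1, chr2:173152823-173153072, plus strand: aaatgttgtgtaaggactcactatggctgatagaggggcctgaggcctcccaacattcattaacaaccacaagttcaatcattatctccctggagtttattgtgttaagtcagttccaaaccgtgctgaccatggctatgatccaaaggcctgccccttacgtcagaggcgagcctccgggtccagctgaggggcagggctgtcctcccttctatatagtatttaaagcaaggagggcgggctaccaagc
Fasn, chr11:120824548-120824797, minus strand: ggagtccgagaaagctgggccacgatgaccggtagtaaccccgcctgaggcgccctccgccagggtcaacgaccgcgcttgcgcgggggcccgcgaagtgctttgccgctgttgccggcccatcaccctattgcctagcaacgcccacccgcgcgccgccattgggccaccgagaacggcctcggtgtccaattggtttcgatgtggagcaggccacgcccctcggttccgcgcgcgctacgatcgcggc
The Plin1 window held 2 matches, beginning at positions -187 and -58 from the start. The Lep window held a palindromic match at -55, and the Cidec window shown held one at -198. A second Cidec window, upstream of the one shown, held none. Over whole windows, the C/EBP-type motif was in 4 of the 32 windows of the fat genes and in 10.8% of all 32851 windows. The remaining window with such a match was 1 of the 3 windows of Pparg. A pair of AGGTCA half-sites 1 base apart, with at most 2 mismatches on either strand (the PPAR-type motif), was in 3 of the 32 windows and in 3.86% of all, and was found at Aqp7 and Cd36. Of these 3 windows, 2 were overlapping windows of Aqp7 that share 1 match, which is counted in both. The SREBP-type motif TCACNCCAC, also searched on both strands, was in 1 of the 32 windows, at Acsl1, and in 1.24% of all. No window of the fat genes held more than 1 of the 3 motif types, and a match describes letters, not binding. Fabp4 and Scd1 had no window in the table.

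Unexposed NZM skin was compared with unexposed WT skin to describe the fat genes before any UVB. Fat cell hormones, lipid droplet genes and many lipid handling genes were lower in NZM. Of the 34 genes, 18 were called lower and 0 higher (limma on log2(value + 1), Benjamini-Hochberg adjusted p below 0.05 over all 19170 genes), against 7.49% of all genes called lower and 7.47% called higher. At an unadjusted p below 0.05 limma gave 1 gene higher, and after adjustment edgeR called 0 and DESeq2 1. The median log2 difference over the 34 genes was -1.13, beside 0.0107 over all genes tested. All 4 hormone genes and all 3 lipid droplet genes were lower, as were 4 of 6 uptake genes and 3 of 5 lipolysis genes. By contrast 0 of the 2 transcription factor genes, 2 of the 7 synthesis genes and 2 of the 6 triglyceride assembly genes were called. The 16 genes not called included Pparg at -0.51 ± 0.50, Cebpa at 0.05 ± 0.26, Scd1 at 0.13 ± 0.59 and Elovl6 at 1.52 ± 0.64 (SE) on the log2 scale. Each of the 18 calls held under every setting tried other than leaving out a library. Without the WT library 45 the count was 12, and 7 of the 18 calls were lost without at least 1 library. With the 9 follicle-rich libraries left out of the fit, Acsl1 (-0.57) and Fasn (-1.17) were also called lower and Elovl6 (1.52) higher (limma adjusted p = 0.0117, 0.0307 and 0.0273). None of the 9 is in either of these groups. The log2 differences were therefore the same, and only the estimate of spread shared by all groups changed.

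A single acute exposure was compared with no exposure in each strain. In iNZM skin 15 of the 34 genes fell and 0 rose, where 12.4% of all genes were called lower and 12.8% higher. The median difference was -1.07 over the fat genes and 0.000708 over all genes. In WT skin 6 fell and 0 rose, where 11.3% of all genes were called lower and 10.4% higher, and the median was -0.47. For genes higher in these 2 strains the unadjusted limma count, the edgeR count and the DESeq2 count were all 0. The 6 genes that fell in WT, Adipoq, Cebpa, Aqp7, Acsl1, Pck1 and Dgat2, were all called in iNZM too, where they made up 40% of the calls. In NZM skin 0 genes were called in either direction, where 10.6% of all genes were called higher and 10.7% lower. Unadjusted limma p-values below 0.05 were found there for 5 genes higher and 2 lower, edgeR called 1 higher, and DESeq2 called 2 higher and 1 lower. The median in NZM was 0.30.

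The acute count in iNZM dropped to 7 without the unexposed library 39, without the unexposed library 40 or without the acute library 6, and to 8 without the acute library 49. In NZM, 1 gene was called without the acute library 5 or the unexposed library 33. Without the 9 follicle-rich libraries, iNZM had 1 gene higher (Dgat1) and 6 lower (Cebpa, Aqp7, Acsl1, Thrsp, Pck1 and Dgat2), and the other 9 calls there were lost. WT then had 1 higher (Mgll) and 9 lower, with Plin1, Lpl and Pnpla2 added, and NZM had 4 higher (Plin4, Agpat2, Dgat1 and Adrb3) and 2 lower (Cebpa and Acsl1). None of the 9 is a WT or unexposed library, so the WT calls changed only through the estimate of spread shared by all groups. The share of all genes called in that fit is not given here.

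Epidermal keratinocyte markers moved with the acute comparisons. They were called lower for 4 of 9 in each strain, and higher for 1 of 9 in WT and 0 in NZM and iNZM. Their summed normalised count ran from 562300 to 746500 in unexposed iNZM and from 178400 to 473600 after acute UVB. In WT it ran from 348100 to 637600 unexposed and from 151200 to 311000 after acute UVB, and in NZM from 585400 to 1019000 and from 284600 to 527800. The groups did not overlap in any strain, and none of the 9 markers was at 0 in any library. Sebaceous gland markers were lower for 3 of 11 in iNZM, 2 in NZM and 1 in WT, and higher for 0, 1 and 3. In acute iNZM, endothelial markers were lower for 3 of 11, macrophage markers for 1 of 10 and muscle markers for 1 of 16, with 0 higher, while 1 of 22 follicle markers was higher. The part of these cell types in the acute fat gene counts was not tested.

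The response to acute UVB was then compared between strains. NZM against WT had 0 genes with a different response in either direction, where 0.0522% of all genes were called higher and 0.0626% lower. At an unadjusted limma p below 0.05, 10 genes were higher and 0 lower, and edgeR and DESeq2 each called 0. iNZM against NZM also had 0 genes in either direction, where 0.00522% of all genes were called higher and 0% lower. There the unadjusted limma p was below 0.05 for 12 genes lower and 0 higher, and edgeR and DESeq2 each called 0. The acute response of iNZM was not tested against that of WT.

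Repeated exposure over 5 days was compared with no exposure in the same way. In WT skin 16 of the 34 genes fell and 2, Elovl6 and Mgll, rose, where 16.8% of all genes were called lower and 18.4% higher. The median was -1.04, beside 0.0348 over all genes. In iNZM skin 14 fell and 3, Acly, Acaca and Mgll, rose, where 15.7% of all genes were called lower and 13.1% higher, with a median of -0.74. The genes called lower in both strains numbered 12: Lep, Adipoq, Retn, Cfd, Plin1, Cidec, Slc2a4, Thrsp, Dgat2, Lipe, Adrb3 and Car3. They are 75% of those called lower in WT and 85.7% of those in iNZM. In NZM skin 1 gene, Adrb3, was called higher and 0 lower, where 9.2% of all genes were called higher and 9.78% lower, and the median was 0.56. At an unadjusted p below 0.05 limma gave 3 genes lower in NZM, edgeR called 0 and DESeq2 1.

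Skeletal muscle, growing follicle and sebaceous gland genes moved with these chronic comparisons. Muscle markers fell in all 3 strains, 14 of 16 in WT and 13 of 16 each in NZM and iNZM, and 0 of 16 rose. Their summed normalised count ran from 954800 to 2404000 in unexposed WT and from 278700 to 349400 after chronic UVB in WT. Pvalb and Actn3, both of fast muscle fibres, fell by 2.52 and 2.62 on the log2 scale in WT. With the muscle score as a covariate, WT had 10 fat genes higher and 3 lower (Lep, Cfd and Thrsp). The share of all genes called in that fit is not given here. Sebaceous gland markers rose in WT for 8 of 11, among them Krt79 at 1.93 ± 0.40 and the cholesterol-esterifying Soat1 at 2.05 ± 0.51. Follicle markers were called higher for 13 of 22 in NZM, 16 of 22 in iNZM and 0 of 22 in WT. The muscle score ran from 0.66 to 1.87 in unexposed WT and from -1.13 to -0.83 after chronic UVB in WT, without overlap. In WT the muscle covariate therefore cannot separate muscle content from chronic UVB. The part of these cell types in the fat gene results was not tested.

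Leaving out libraries moved the chronic counts in iNZM and NZM. Without the 9 follicle-rich libraries, 9 fat genes were called higher and 4 lower in iNZM, so the majority turned. The share of all genes called in that fit is not given here. The 4 that fell were Adipoq, Retn, Cfd and Plin1. The iNZM chronic group then held only libraries 23 and 57, and the NZM chronic group only libraries 18 and 54. The 9 that rose were Pparg, Acly, Acacb, Fasn, Scd1, Elovl6, Agpat2, Dgat1 and Mgll. In chronic WT, Plin4, Cd36, Acsl1 and Gpd1 were then also called lower and Dgat1 higher. The WT log2 differences were the same in that fit, and only the estimate of spread shared by all groups changed. The iNZM count was 8 without the unexposed library 39 and 9 without the unexposed library 40. The call for Adrb3 in NZM was lost whichever 1 of the 10 libraries was left out, and 0 genes were called without the chronic library 17, 55 or 56 or the unexposed library 31, 32 or 35. Without the NZM chronic library 18, 3 genes were called lower and 0 higher, and without the chronic library 54 or the unexposed library 34, 1 was called lower.

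The response to chronic UVB differed between NZM and WT for several fat genes. The difference of the 2 responses was called higher in NZM for 9 of the 34 genes and lower for 0, where 3.5% of all genes were called higher and 4.08% lower. The 9 were Lep, Adipoq, Retn, Cfd, Plin1, Cidec, Thrsp, Lipe and Adrb3, with log2 differences from 1.76 for Lipe to 4.84 for Lep. The median over the 34 genes was 0.93, beside -0.00861 over all genes. At an unadjusted p below 0.05 limma gave 1 gene lower, edgeR called 11 higher and 0 lower, and DESeq2 12 higher and 1 lower. The count was 17, all higher, without the 9 follicle-rich libraries, when the NZM chronic group held only libraries 18 and 54. The share of all genes called in that fit is not given here. The difference of the responses uses the unexposed groups of the comparison above, in which the same 9 genes were lower in NZM. After chronic UVB itself, NZM against WT had 0 genes called in either direction, where 4.29% of all genes were called higher and 3.59% lower. An unadjusted limma p below 0.05 was found there for 1 gene higher and 1 lower, with 0 by edgeR and 0 by DESeq2.

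Other comparisons gave few calls among the 34 genes. After acute UVB, NZM was lower than WT for 3 genes, Fabp4, Thrsp and Gpd1, and higher for 0, where 5.08% of all genes were called lower and 7.96% higher. None had an unadjusted limma p below 0.05 for higher (0 genes), and edgeR and DESeq2 called 0 higher. That count was 1 without the NZM library 3 or 5 or the WT library 51 or 52, and 5 without the WT library 15. Chronic against acute UVB in WT had 5 genes higher (Cebpa, Aqp7, Acsl1, Elovl6 and Pck1) and 4 lower (Lep, Slc2a4, Lpin1 and Adrb3), where 19.6% of all genes were called higher and 17.7% lower. The lower calls outnumbered the higher by 5 to 4 without the WT acute library 50 and by 7 to 4 without the acute library 15. In NZM the same comparison had 1 gene higher, Pck1, and 0 lower, where 3.79% of all genes were called higher and 3.76% lower. For lower, the unadjusted limma, edgeR and DESeq2 counts were 0, and the Pck1 call was lost without any 1 of the acute libraries 1, 3 and 5 or the chronic libraries 18, 54 and 56, when the count was 0. In iNZM it had 0 genes in either direction, where 3.81% of all genes were called higher and 4.45% lower. Unadjusted limma p-values below 0.05 were found there for 5 genes higher and 0 lower, and edgeR called 2 higher and DESeq2 5. The count was 1 without the iNZM acute library 48 and 2 without the chronic library 24 or 25. Chronic against acute UVB had 3 genes higher in NZM (Cebpa, Aqp7 and Acsl1, no longer Pck1) and 7 in iNZM when the 9 follicle-rich libraries were left out, and 0 lower in both. The share of all genes called in that fit is not given here.

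The strains iNZM and NZM were compared within each regimen. Without UVB 0 of the 34 genes were called, where 0% of all genes were called higher and 0.0313% lower. Unadjusted limma p-values below 0.05 were found for 7 genes higher and 0 lower, and edgeR and DESeq2 called 0. After acute UVB 0 were called, where 0.00522% of all genes were called higher and 0.219% lower. All 34 log2 differences were negative there, from -2.14 to -0.02, with 6 below an unadjusted p of 0.05 and 0 called by edgeR or DESeq2. After chronic UVB 0 were called, where 0.0156% of all genes were called higher and 0.412% lower. An unadjusted limma p below 0.05 was found for 13 genes lower and 0 higher, edgeR called 0 and DESeq2 1. The chronic count was 9 without the iNZM library 23, 4 without the iNZM library 25 and 3 without the NZM library 17. The difference in chronic response had 0 genes in either direction, where 0% of all genes were called higher and 0% lower. There 12 genes were lower and 0 higher at an unadjusted limma p below 0.05, edgeR called 0 and DESeq2 6 lower. That count was 11 without the iNZM chronic library 23, 7 without the iNZM chronic library 25, 6 without the NZM chronic library 17 and 1 without the unexposed NZM library 33.

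**Figure D1:**
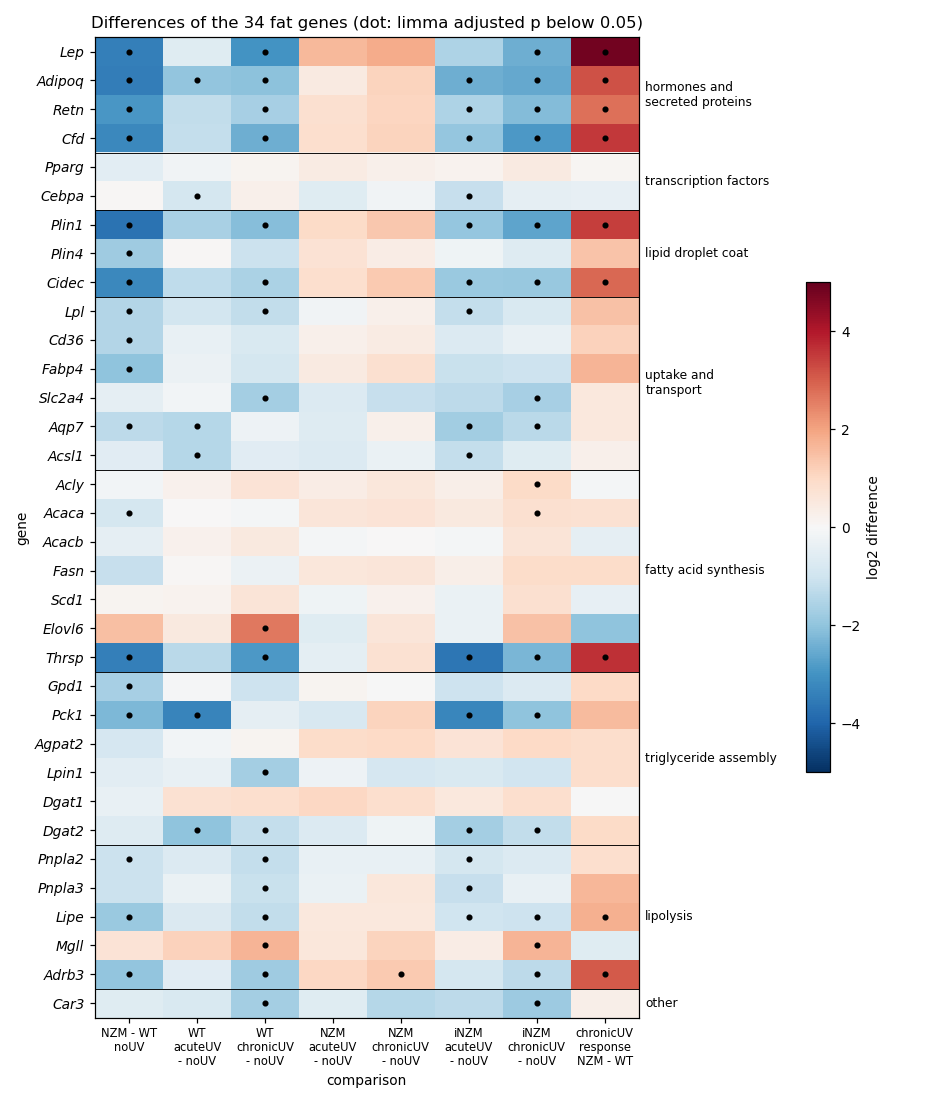
Log2 difference of each of the 34 fat genes (rows, grouped by role) in 8 comparisons (columns), coloured from blue for lower to red for higher, with a dot where the limma adjusted p was below 0.05. The 4 hormone rows, Plin1 and Cidec are blue and dotted in unexposed NZM against WT and after chronic UVB in WT and iNZM, and red and dotted in the last column, the chronic response of NZM against WT.

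The hormone gene Adipoq, which encodes adiponectin, separated unexposed NZM from unexposed WT skin completely. Its normalised read counts were 5392, 6492, 8452 and 11592 in the 4 unexposed WT libraries and 253, 475, 811, 1101 and 1504 in the 5 unexposed NZM libraries. The highest NZM library lay below the lowest WT library, and the log2 difference was -3.46 ± 0.68 (SE, limma adjusted p = 0.000388), a fold of 11 lower on the scale of value + 1. In unexposed iNZM skin the counts were 1059, 1455, 2806 and 3494, which overlap the NZM values and lie below all WT values. After acute UVB they were 938, 1028, 2422, 2657 and 4796 in WT, 623, 989, 1032, 1097 and 1136 in NZM and 170.2, 185, 205, 658 and 1560 in iNZM. All 5 WT libraries lay below the unexposed WT ones, whereas the NZM and iNZM libraries overlapped their unexposed groups. The acute log2 differences were -1.96 ± 0.68 in WT, -2.42 ± 0.68 in iNZM and 0.46 ± 0.64 in NZM, with limma adjusted p of 0.035, 0.0082 and 0.66. The WT call was lost without any 1 of the acute libraries 15 and 50 or the unexposed libraries 41, 43 and 45 (adjusted p up to 0.108). In iNZM the acute libraries 9 and 10 were well above the other 3, and the call was lost without the follicle-rich libraries (limma adjusted p = 0.0975).

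After chronic UVB, Adipoq counts were 1066, 1342, 2139, 2340 and 2873 in WT, 792, 866, 2173, 2257 and 2363 in NZM and 52, 181, 272, 906 and 1674 in iNZM. The WT libraries again all lay below the unexposed WT ones, and in NZM 3 libraries lay above all unexposed NZM ones. The chronic log2 differences were -2.06 ± 0.68 (SE, limma adjusted p = 0.0177) in WT, -2.57 ± 0.68 (SE, limma adjusted p = 0.00626) in iNZM and 1.12 ± 0.64 (SE, limma adjusted p = 0.22) in NZM. The WT call was lost without the unexposed library 45 (adjusted p = 0.0597) and with the muscle score as a covariate. The iNZM call was lost with the follicle score as a covariate and with only the compared groups in the fit. The difference between the NZM and WT responses was 3.19 ± 0.94 (SE, limma adjusted p = 0.0316), and its call was lost without any 1 of 6 libraries, WT 45, 58 and 59 and NZM 34, 35 and 56 (adjusted p up to 0.083).

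Lep encodes leptin, the fat cell hormone that reports fat stores to the brain. Its counts were 975, 1674, 2005 and 3850 in unexposed WT, 53.3, 61.1, 151, 368 and 933 in unexposed NZM and 401, 514, 1064 and 1644 in unexposed iNZM. All NZM libraries lay below all WT libraries, the closest pair being 933 and 975, and the log2 difference was -3.41 ± 0.80 (SE, limma adjusted p = 0.00247). After acute UVB the counts were 517, 646, 966, 2360 and 3837 in WT, 416, 429, 581, 616 and 731 in NZM and 86.7, 106, 146, 846 and 1149 in iNZM, each overlapping its unexposed group. No acute difference of Lep passed the test, with log2 values of -0.60, 1.61 and -1.54. After chronic UVB they were 88.8, 236, 279.6, 293 and 429 in WT, 298, 537, 697, 814 and 1166 in NZM and 41.6, 48.8, 119.6, 401 and 562 in iNZM. Every chronic WT library lay below every unexposed and every acute WT library, and Lep fell by 2.99 ± 0.80 (SE, limma adjusted p = 0.00365). In NZM the chronic difference was positive and did not pass the test, at 1.85 ± 0.75 (SE, limma adjusted p = 0.077). The difference of these responses was 4.84 ± 1.09 (SE, limma adjusted p = 0.00712), the largest of the 34, and it held without any 1 library. In iNZM Lep fell by 2.45 ± 0.80 (SE, limma adjusted p = 0.021), and the call was lost without the chronic library 22 or 57 or the unexposed library 39 or 40 (adjusted p up to 0.0806) and without the 9 follicle-rich libraries (-2.33, adjusted p = 0.104).

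**Figure D2:**
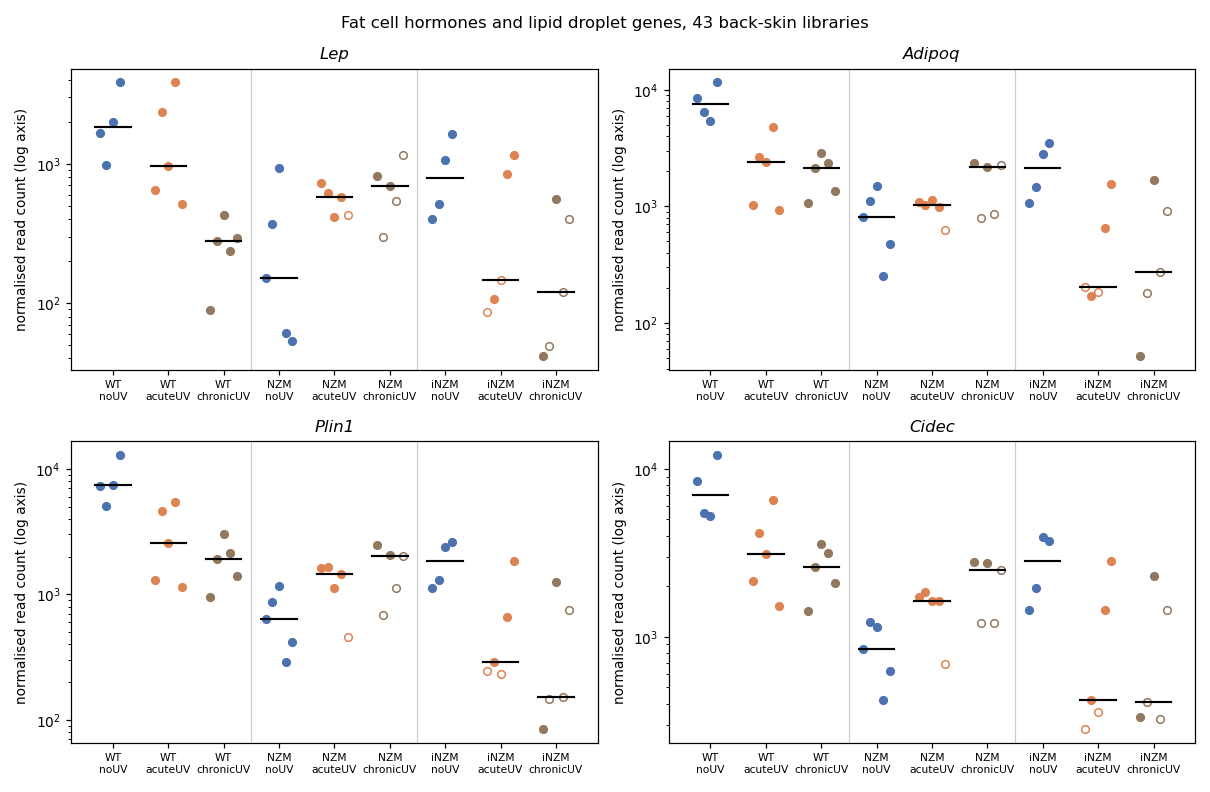
Normalised read counts (log axis) of Lep, Adipoq, Plin1 and Cidec in the 43 libraries, by strain and UVB regimen, with 1 point per library, a black line at each group's median, and open points for the 9 libraries with a hair follicle score above 5. The unexposed WT libraries lie above all unexposed NZM libraries, and the chronic WT libraries lie below the unexposed WT ones for all 4 genes.

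Retn and Cfd were also lower in unexposed NZM than in WT and fell after chronic UVB in WT and iNZM. Cfd, the gene of complement factor D (adipsin), had counts of 35544, 35989, 49221 and 49716 in unexposed WT and 1683, 2950, 5570, 5962 and 11273 in unexposed NZM. The groups did not overlap, and the difference was -3.22 ± 0.61 (SE, limma adjusted p = 0.000244). After chronic UVB the counts were 4440, 5194, 9889, 10344 and 12406 in WT and 543, 1015, 1388, 5806 and 7640 in iNZM, against 10168, 10315, 20085 and 22751 in unexposed iNZM. Neither chronic group overlapped its unexposed group. Cfd differed by -2.43 ± 0.61 (SE, limma adjusted p = 0.00239) in WT and -2.87 ± 0.61 (SE, limma adjusted p = 0.00114) in iNZM, and both calls held without any 1 library, with the muscle score and with the follicle score as a covariate. Retn, which encodes resistin, differed by -2.91 ± 0.54 (SE, limma adjusted p = 0.000168) in unexposed NZM against WT, and after chronic UVB by -1.67 ± 0.54 in WT and -2.18 ± 0.54 in iNZM. The chronic WT call was lost without the unexposed library 41 (adjusted p = 0.071) and with the muscle score as a covariate. The chronic iNZM call was lost with the follicle score as a covariate and with only the compared groups in the fit.

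The transcription factor genes followed another pattern. Pparg, the master regulator of fat cell differentiation, passed the test in none of the comparisons with all libraries. Its counts were 616, 724, 838 and 1073 in unexposed WT, 503, 506, 521, 543 and 752 in unexposed NZM and 436, 509, 564 and 591 in unexposed iNZM. After acute UVB they were 389, 669.5, 736, 904 and 1010 in WT, 321, 779, 939, 940.1 and 1040 in NZM and 280.4, 355, 756, 985 and 1009 in iNZM. The follicle-rich libraries 5, 6 and 49 were the lowest of their groups. After chronic UVB the counts were 321, 565, 1110, 1433 and 1735 in WT, 421, 517, 789.6, 833 and 853 in NZM and 216, 236, 1112, 1585 and 1930 in iNZM. In the chronic iNZM group the follicle-rich libraries 24 and 25 were lowest, far below the other 3. The 95% interval of the chronic log2 difference was -0.89 to 1.15 in WT, -0.73 to 1.20 in NZM and -0.59 to 1.46 in iNZM. Without the 9 follicle-rich libraries Pparg rose in iNZM by 1.74 (limma adjusted p = 0.00323).

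Cebpa, whose product acts with PPARγ in fat cells and is also made in keratinocytes and sebaceous glands, fell after acute UVB. Its counts were 9513, 10571, 11617 and 11993 in unexposed WT and 3465, 6497, 6791, 6938 and 7300 after acute UVB in WT. In iNZM they were 10480, 11147, 13945 and 17236 unexposed and 4228, 4478, 6546, 6635 and 8702 after acute UVB. Neither pair of groups overlapped, and Cebpa fell by 0.86 ± 0.26 in WT and fell by 1.13 ± 0.26 in iNZM (SE, limma adjusted p = 0.016 and 0.00166). The WT call was lost without the acute library 50 (adjusted p = 0.0779). In NZM the value was -0.62 ± 0.25 (SE, limma adjusted p = 0.0728). After chronic UVB in WT its counts were 7267, 12764, 13060, 16756 and 17257. All but library 58 lay above all unexposed WT libraries, and Cebpa was higher than after acute UVB by 1.10 ± 0.25 (SE, limma adjusted p = 0.000693).

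The lipid droplet gene Plin1 had the largest log2 difference of the 34 between unexposed NZM and WT. Plin1 encodes perilipin 1, which coats the droplet and gates access of lipases to it. Its counts were 5047, 7335, 7441 and 12841 in unexposed WT, 288, 421, 635, 861 and 1155 in unexposed NZM and 1119, 1306, 2402 and 2629 in unexposed iNZM. All WT libraries lay above all NZM and all iNZM libraries, and NZM differed from WT by -3.69 ± 0.63 (SE, limma adjusted p = 5.06e-05), a fold of 12.9 lower. After acute UVB the counts were 1147, 1305, 2578, 4624 and 5411 in WT, 461, 1122, 1447, 1623 and 1654 in NZM and 233, 245, 289, 657 and 1836 in iNZM. The iNZM difference passed the test, at -1.93 ± 0.63 (SE, limma adjusted p = 0.022), and it was lost without the acute library 6 or 49 or the unexposed library 39 or 40 (adjusted p up to 0.0741). The WT difference, -1.63 ± 0.63 (SE, limma adjusted p = 0.0601), did not pass. With the 9 follicle-rich libraries left out, WT was called at -1.63 and iNZM was not, at -1.31 (limma adjusted p = 0.0349 and 0.172). None of the 9 was a WT or unexposed library, so the WT value stayed the same. Its SE fell to 0.58, because the estimate of spread is shared by all groups. After chronic UVB they were 951, 1406, 1911, 2118 and 3019 in WT, 689, 1115, 2013, 2064 and 2467 in NZM and 84.6, 148, 152, 755 and 1252 in iNZM. The WT libraries all lay below the unexposed ones, while 3 of the 5 NZM libraries lay above all unexposed NZM ones. Plin1 fell by 2.14 ± 0.63 in WT and fell by 2.62 ± 0.63 in iNZM (SE, limma adjusted p = 0.00798 and 0.00308), and the NZM value was 1.33 ± 0.59 (SE, limma adjusted p = 0.108). The chronic WT call was lost with the muscle score as a covariate and the chronic iNZM call with the follicle score. The responses of NZM and WT differed by 3.48 ± 0.87 (SE, limma adjusted p = 0.013).

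Cidec encodes a protein that fuses lipid droplets into a large one. Its counts were 5213, 5458, 8467 and 12078 in unexposed WT, 419, 623, 844, 1142 and 1233 in unexposed NZM and 1437, 1940, 3735 and 3954 in unexposed iNZM. All 5 NZM libraries lay below the iNZM and the WT ones, and NZM differed from WT by -3.21 ± 0.56 (SE, limma adjusted p = 7.52e-05) while the difference of iNZM from NZM, 1.68 ± 0.56 (SE, limma adjusted p = 0.655), did not pass the test. After acute UVB the counts were 1518, 2150, 3119, 4151 and 6523 in WT, 688, 1629, 1638, 1715 and 1860 in NZM and 282, 358, 421, 1445 and 2836 in iNZM. After chronic UVB they were 1423, 2106, 2618, 3166 and 3556 in WT, 1206, 1215, 2514, 2742 and 2792 in NZM and 325, 334, 409, 1435 and 2310 in iNZM. In NZM 4 of the 5 acute and 3 of the 5 chronic libraries lay above all unexposed ones, without passing the test. Cidec fell after chronic UVB by 1.58 ± 0.56 in WT and fell by 1.89 ± 0.56 in iNZM (SE, limma adjusted p = 0.027 and 0.0133), calls lost without the WT library 41, 45 or 58 and without the unexposed iNZM library 39. The iNZM value was -1.53 (limma adjusted p = 0.0888) when the 9 follicle-rich libraries were left out. Both chronic calls of Cidec were lost with the muscle score as a covariate, and the iNZM call also with the follicle score. Plin4, a coat protein of small and new droplets, was lower in unexposed NZM than in WT by -1.78 ± 0.49 (SE, limma adjusted p = 0.0105) and was not called in the UVB comparisons with all libraries. When the 9 follicle-rich libraries were left out, Plin4 was called higher in NZM after acute UVB at 1.14 and after chronic UVB at 1.08, and lower in WT after chronic UVB at -1.06 (limma adjusted p = 0.0015, 0.0477 and 0.00163). The NZM chronic group then held only libraries 18 and 54.

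Uptake and transport genes were lower in unexposed NZM for Lpl, Cd36, Fabp4 and Aqp7. Fabp4, the main fatty acid carrier inside fat cells, had counts of 25287, 28503, 41892 and 46528 in unexposed WT and 6116, 8073, 8479, 9578 and 11684 in unexposed NZM, without overlap. Its difference was -2.0 ± 0.44 (SE, limma adjusted p = 0.00121). Lpl, whose lipase frees fatty acids from blood lipoproteins, differed by -1.46 ± 0.39, and Cd36, which takes them into the cell, by -1.45 ± 0.45 (limma adjusted p = 0.00816 and 0.0245). The Cd36 call was lost without any 1 of 4 of the 9 libraries (limma adjusted p up to 0.0968). The Aqp7 call in unexposed NZM was lost without any 1 of 2 of them (up to 0.112). Aqp7, the glycerol channel of fat cells, stood out after acute UVB. Its counts were 182, 254, 264 and 447 in unexposed WT and 73.4, 80.6, 95.1, 111 and 157 after acute UVB, and 99.2, 105, 188 and 195 in unexposed iNZM and 25.3, 28.9, 48.2, 57.1 and 59.7 after acute UVB. Neither pair overlapped, and Aqp7 fell by 1.44 ± 0.39 in WT and fell by 1.73 ± 0.39 in iNZM (SE, limma adjusted p = 0.00627 and 0.00122). Both calls held without any 1 library.

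Acsl1, which attaches coenzyme A to fatty acids for storage or burning, also fell after acute UVB. In WT its counts were 8416, 10170, 12107 and 13096 unexposed and 3086, 3836, 4242, 4249 and 5000 after acute UVB, with no overlap and a difference of -1.42 ± 0.35 (SE, limma adjusted p = 0.00231). In iNZM it fell by 1.20 ± 0.35 (SE, limma adjusted p = 0.00956). Slc2a4 encodes GLUT4, the glucose transporter that insulin moves to the surface of fat and muscle cells, and fell after chronic UVB. In WT its counts were 2336, 3698, 4058 and 6692 unexposed, 2340, 3019, 3660, 4501 and 4718 after acute UVB and 1035, 1134, 1258, 1303 and 1386 after chronic UVB. All chronic libraries lay below all others of the strain, and the chronic difference was -1.69 ± 0.51 (SE, limma adjusted p = 0.00958). The sign turned with the muscle score as a covariate, to 0.18, but that score did not overlap between the chronic and the other WT libraries. In iNZM Slc2a4 fell by 1.65 ± 0.51 (SE, limma adjusted p = 0.0165), was 0.04 without the 9 follicle-rich libraries, and lost its call without the chronic library 24 or 25 (adjusted p up to 0.0755).

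Fatty acid synthesis genes mostly did not fall where the hormone and droplet genes did. Fasn, which encodes the fatty acid synthase, and Scd1, the desaturase that makes oleate, were called in 0 of the 19 comparisons with all libraries. Acacb was also called in none. Elovl6, which lengthens palmitate to stearate, had counts of 7124, 8110, 8969 and 10108 in unexposed WT and 11477, 31605, 68718, 111185 and 142325 after chronic UVB in WT. All chronic libraries lay above all unexposed ones, and Elovl6 rose by 2.62 ± 0.64 (SE, limma adjusted p = 0.00171), a fold of 6.16. In iNZM its chronic counts were 11100, 18037, 78162, 89780 and 161290 against 11490, 17200, 19288 and 21709 unexposed, where the follicle-rich libraries 24 and 25 were lowest and the difference was 1.47 ± 0.64 (SE, limma adjusted p = 0.0783). It was 2.83 (limma adjusted p = 0.00266) without the 9 follicle-rich libraries. Acly, which makes cytosolic acetyl-CoA, and Acaca, the rate-setting carboxylase, rose after chronic UVB in iNZM by 0.96 ± 0.34 and 0.81 ± 0.27 (SE, limma adjusted p = 0.0322 and 0.0265). The Acly call was lost without 7 of the 9 libraries and the Acaca call without 4 (adjusted p up to 0.0979 and 0.059). The Acaca value was 0.86 (limma adjusted p = 0.115) with the 9 follicle-rich libraries left out. Without the 9 follicle-rich libraries, Fasn, Scd1 and Acacb were called higher in iNZM at 1.68, 2.10 and 2.10.

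**Figure D3:**
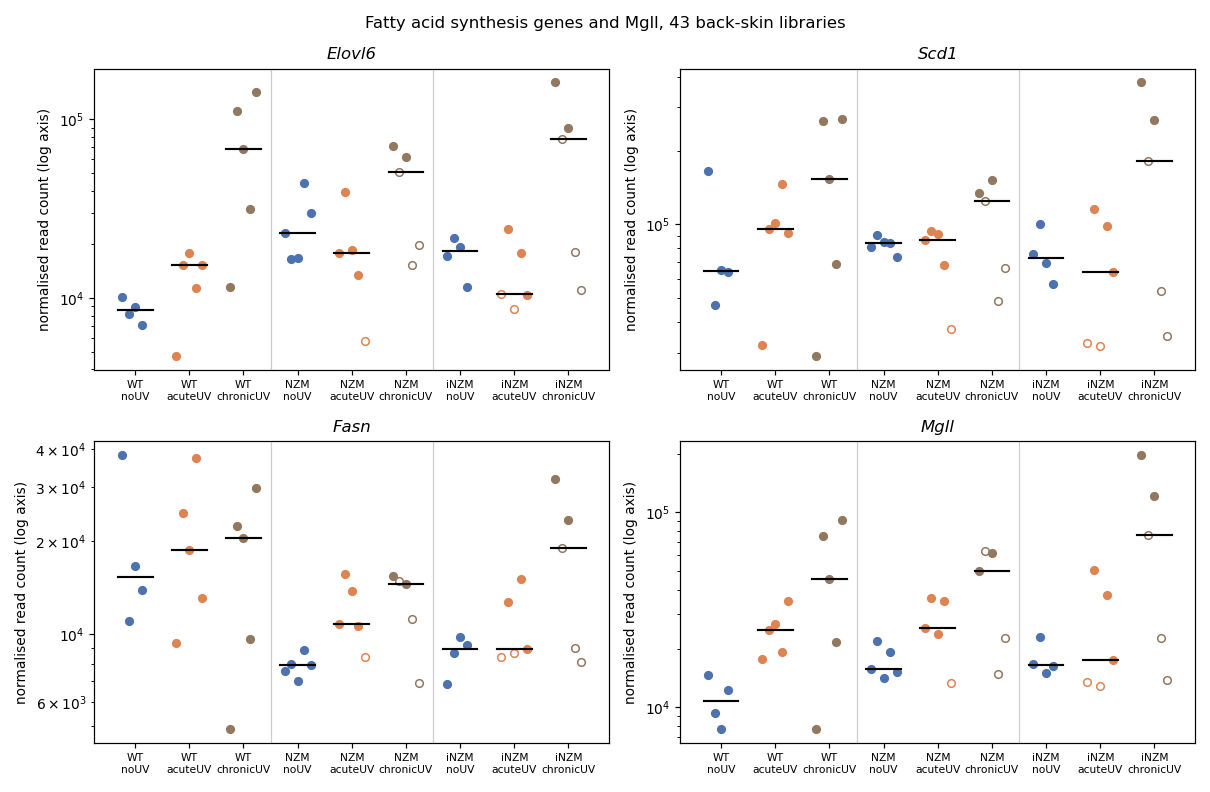
Normalised read counts (log axis) of Elovl6, Scd1, Fasn and Mgll in the 43 libraries, by strain and UVB regimen, with 1 point per library, a black line at each group's median, and open points for the 9 libraries with a hair follicle score above 5. Elovl6 lies higher in all 5 chronic WT libraries than in the 4 unexposed ones, and the other 3 genes spread widely after chronic UVB.

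Thrsp, a lipogenic gene of adipocytes induced by feeding, was called lower in unexposed NZM than in WT, after acute UVB in iNZM and after chronic UVB in WT and iNZM. Its counts were 1546, 2285, 3587 and 12274 in unexposed WT, 199, 245, 358, 391 and 546 in unexposed NZM and 336, 414, 949 and 1269 in unexposed iNZM. NZM and WT did not overlap, and the difference was -3.43 ± 0.70 (SE, limma adjusted p = 0.000622). After acute UVB the counts were 381, 444, 1834, 2798 and 5575 in WT, 125, 132, 285, 320.0 and 442 in NZM and 26.3, 29.9, 36.4, 90.1 and 139 in iNZM. All 5 acute iNZM libraries lay below all unexposed ones, and Thrsp fell by 3.61 ± 0.70 (SE, limma adjusted p = 0.000239), a fold of 12.2 lower. That call held without any 1 library and without the follicle-rich libraries. After chronic UVB the counts were 306, 331, 446, 754 and 769 in WT, 246, 299, 872, 873 and 978 in NZM and 41.6, 88.4, 102, 152 and 629 in iNZM. Thrsp fell by 2.87 ± 0.70 in WT, where the groups did not overlap, and fell by 2.30 ± 0.70 in iNZM (SE, limma adjusted p = 0.00181 and 0.0155). The iNZM call was lost without the unexposed library 39 or 40 (adjusted p up to 0.0641) and without the 9 follicle-rich libraries (-1.97, adjusted p = 0.135).

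Triglyceride assembly was led by Pck1, whose enzyme PEPCK feeds glycerol synthesis in fat cells. Its counts were 1241, 1432, 1945 and 3128 in unexposed WT, 194, 327, 401, 547 and 571 in unexposed NZM and 777, 842, 1417 and 1947 in unexposed iNZM. After acute UVB they were 65, 78.3, 278, 279 and 502 in WT, 105, 139, 299, 319 and 328 in NZM and 64.6, 66.9, 75.8, 197 and 381 in iNZM. The acute libraries lay below all unexposed ones in WT and in iNZM and overlapped them in NZM. Pck1 fell by 3.31 ± 0.63 in WT and fell by 3.26 ± 0.63 in iNZM (SE, limma adjusted p = 0.000135 and 0.000208), folds of 9.92 and 9.6 lower. Both calls held without any 1 library and under every other setting tried, and the NZM value was -0.82 ± 0.59 (SE, limma adjusted p = 0.355). After chronic UVB the counts were 872, 938, 1298, 1692 and 2191 in WT, 426, 474, 1048, 1156 and 1582 in NZM and 71.3, 180.0, 192, 566 and 1332 in iNZM. The chronic WT libraries all lay above the acute WT ones, with a difference of 2.85 ± 0.59 (SE, limma adjusted p = 0.000264), and overlapped the unexposed ones, with -0.46 ± 0.63. In iNZM Pck1 was lower than unexposed by -2.02 ± 0.63 (SE, limma adjusted p = 0.0168), a call lost without the chronic library 57 or the unexposed library 39 (adjusted p up to 0.0624) and without the 9 follicle-rich libraries (-1.90, adjusted p = 0.0907). It was also lost by edgeR and by DESeq2, with only the compared groups in the fit, and with the follicle or the muscle score as a covariate.

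Dgat2, whose enzyme adds the last fatty acid to triglyceride, fell in both regimens in WT and iNZM. Its counts in WT were 7501, 8232, 10781 and 11059 unexposed and 1111, 1534, 2718, 3412 and 4234 after acute UVB, which did not overlap, with a difference of -2.0 ± 0.39 (SE, limma adjusted p = 0.000222). In iNZM it fell after acute UVB by 1.69 ± 0.39 (SE, limma adjusted p = 0.00167). After chronic UVB it differed by -1.19 ± 0.39 in WT and -1.23 ± 0.39 in iNZM (SE, limma adjusted p = 0.0182 and 0.0195), calls lost without the WT library 41, 45, 58 or 59 and without the iNZM library 24, 39 or 40. The chronic iNZM value was -1.15 (limma adjusted p = 0.0633) without the 9 follicle-rich libraries. Both chronic calls of Dgat2 were lost with the muscle score as a covariate, and the iNZM call also with the follicle score. Lpin1, whose phosphatase makes diacylglycerol, had counts of 1795, 1923, 2266 and 2848 in unexposed WT, 1007, 1392, 1648, 2165 and 2547 after acute UVB and 453, 638, 674, 766 and 839 after chronic UVB. All chronic libraries lay below all others of the strain, with a difference of -1.72 ± 0.38 (SE, limma adjusted p = 0.000583) that lost its call with the muscle score as a covariate. Gpd1, which makes glycerol phosphate, was lower in NZM than in WT without UVB, at -1.68 ± 0.53, and after acute UVB, at -1.47 ± 0.50. The call without UVB was lost without any 1 of 4 of the 9 libraries (limma adjusted p up to 0.0828). The acute call was lost without any 1 of 7 of the 10 libraries (limma adjusted p up to 0.151). It was also lost with the muscle score as a covariate and with a term for sample numbers of 46 or above. Agpat2 and Dgat1 were called in 0 of the 19 comparisons with all libraries. When the 9 follicle-rich libraries were left out, Agpat2 was called higher after acute UVB in NZM (1.05) and after chronic UVB in iNZM (1.89). Dgat1 was then called higher after acute UVB in NZM (1.28) and iNZM (1.18) and after chronic UVB in iNZM (2.01) and WT (0.83).

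Lipolysis genes were lower in unexposed NZM for Lipe, Pnpla2 and Adrb3. Lipe encodes hormone-sensitive lipase, and its counts were 1946, 2226, 2694 and 3377 in unexposed WT and 483, 684, 698, 770.0 and 882 in unexposed NZM, without overlap and with a difference of -1.86 ± 0.37 (SE, limma adjusted p = 0.000366). Pnpla2 encodes ATGL, the first enzyme of triglyceride breakdown. Its counts in WT were 7244, 8103, 9674 and 12292 unexposed and 2248, 3845, 4286, 5226 and 5311 after chronic UVB, which did not overlap, and it fell by 1.19 ± 0.33 (SE, limma adjusted p = 0.00458). That call was lost with the muscle score as a covariate. Pnpla3, a relative of ATGL, fell in iNZM after acute UVB by 1.15 ± 0.41 (SE, limma adjusted p = 0.0385), from 96.3, 101, 137 and 178 unexposed to 24.1, 47.3, 58.1, 82.9 and 95.8. The highest acute library, at 95.8, lay just below the lowest unexposed one, at 96.3, and the call was lost without the acute library 6 or 9 or the unexposed library 39 or 40 (adjusted p up to 0.151).

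Adrb3, the β3-adrenergic receptor gene through which nerves start lipolysis, was the 1 fat gene called after chronic UVB in NZM. Its counts there were 82.1, 85.3, 115, 116 and 145 unexposed and 184, 215, 246, 283 and 448 after chronic UVB, which did not overlap, a difference of 1.29 ± 0.47 (SE, limma adjusted p = 0.0479). That call was lost whichever 1 of the 10 libraries was left out (limma adjusted p up to 0.108). It was also lost with no filter on low values and with a term for sample numbers of 46 or above. In WT the counts were 205, 396, 404 and 946 unexposed and 91, 95.6, 109.8, 125 and 224 after chronic UVB, which overlapped, and Adrb3 fell by 1.78 ± 0.50 (SE, limma adjusted p = 0.00537). This WT call was lost with the muscle score as a covariate. The responses differed by 3.07 ± 0.68 (SE, limma adjusted p = 0.00618). With the 9 follicle-rich libraries left out, the NZM value was 1.73 (limma adjusted p = 0.081), with only libraries 18 and 54 in the NZM chronic group. Mgll, whose lipase ends lipolysis and also works outside fat cells, moved the other way. In WT its counts were 7765, 9330, 12199 and 14578 unexposed and 7737, 21684, 45350, 75787 and 90842 after chronic UVB, and in iNZM 15071, 16266, 16758 and 22983 unexposed and 13787, 22578, 76423, 121596 and 196135 after chronic UVB. The chronic libraries WT 58 and iNZM 25 lay below all unexposed ones of their strain and iNZM 24 lay among them, while the other 7 lay above, and Mgll rose by 1.72 ± 0.59 (SE, limma adjusted p = 0.0229) in WT and 1.68 ± 0.59 (SE, limma adjusted p = 0.0316) in iNZM. The WT call was lost without any 1 of 4 libraries (27, 43, 44 and 59) and the iNZM call without any 1 of 6 (22, 23, 37, 39, 40 and 57), with adjusted p up to 0.0812 and 0.106. The iNZM value was 3.14 (limma adjusted p = 0.000344) with the 9 follicle-rich libraries left out.

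Car3, abundant in fat cells and in slow muscle, had counts of 168538, 235283, 260191 and 375996 in unexposed WT and 62238, 75252, 79196, 79732 and 85072 after chronic UVB, which did not overlap. Its log2 difference was -1.72 ± 0.55 (SE, limma adjusted p = 0.0138) in WT and -1.83 ± 0.55 (SE, limma adjusted p = 0.0134) in iNZM. In iNZM the chronic counts were 19974, 22029, 40295, 159023 and 169148, all below the unexposed range that began at 186198, with libraries 23 and 57 far above the other 3. With the muscle score as a covariate the WT value turned to 0.29, but that score did not overlap between these WT groups. The WT call was also lost without the unexposed library 41 and the iNZM call without the chronic library 24 (adjusted p = 0.0504 and 0.0591). In iNZM the value was -0.24 (limma adjusted p = 0.693) with the 9 follicle-rich libraries left out, and the call was also lost with the follicle score and with the muscle score as a covariate.

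Other genes of the same pathways were counted from further lists. In unexposed NZM against WT, 6 of 23 other uptake and synthesis genes were lower and 0 higher, among them Agpat1 at -0.77 ± 0.12. Of 14 other adipokine and hormone receptor genes 6 were lower and 0 higher, led by the retinol carrier Rbp4 at -3.31 ± 0.60 and the insulin signalling gene Irs1 at -1.04 ± 0.25. Of 15 other droplet and lipolysis genes 3 were lower and 0 higher, among them Prkar2b, a regulatory subunit of protein kinase A, at -1.77 ± 0.33. After chronic UVB in WT, 8 of 14 adipokine and receptor genes, 8 of 15 droplet and lipolysis genes and 5 of 23 uptake and synthesis genes fell, while 0, 2 and 3 rose. Angptl8, a feeding-induced inhibitor of lipoprotein lipase made by fat and liver, was lower there by -4.23 ± 0.87, and its response in NZM differed from that in WT by 6.70 ± 1.19 (SE, limma adjusted p = 0.00078). After acute UVB Klf5, a growth-related factor also active in keratinocytes, and Plin3, a droplet coat gene of most cells, fell in all 3 strains. Klf5 fell by 1.45 in NZM, 1.13 in iNZM and 1.29 in WT, and Plin3 by 0.76, 0.79 and 0.65. Of 16 other adipogenic regulators, 5 fell in NZM, 6 in iNZM and 2 in WT after acute UVB, while 2, 0 and 2 rose.

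Markers of other cell types moved with several of these comparisons. In unexposed NZM against WT, 9 of 13 fat progenitor and fibroblast markers were lower and 1 higher, among them Col1a2 at -2.71 ± 0.63. The summed count of these 13 genes ran from 20050 to 55240 in unexposed NZM and from 64370 to 288500 in unexposed WT, and none was at 0 in any library. Macrophage markers were lower for 3 of 10 and higher for 0, endothelial markers for 3 of 11 and 0, and muscle markers for 1 of 16 and 0, while epidermal keratinocyte markers were higher for 4 of 9 and lower for 0. Sebaceous gland markers were higher for 2 of 11 and lower for 1, with summed counts from 121300 to 166600 in unexposed NZM and from 58800 to 88380 in unexposed WT, without overlap and with none at 0. After chronic UVB fibroblast markers were lower for 7 of 13 in WT and 9 of 13 in iNZM, and higher for 4 of 13 in NZM. The difference of the chronic response between NZM and WT was positive for 8 of the 13, among them Dcn at 2.91 ± 0.70. Macrophage markers fell for 9 of 10 in iNZM after chronic UVB, with summed counts from 830.3 to 6623, against 9676 to 29730 unexposed. Among 9 brown and beige fat markers tested, Elovl3 rose after chronic UVB by 3.61 ± 0.60 in WT. In chronic WT the summed count of sebaceous gland markers ran from 91830 to 484300, above the unexposed WT range. Which cells the Elovl3 RNA came from was not tested. The score of the whole brown and beige list, formed as for the follicle genes, did not separate unexposed from chronic WT. It ran from -0.23 to 0.18 in unexposed WT and from -0.22 to 0.53 after chronic UVB in WT. Whether these cell types account for part of the fat gene differences was not tested.

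**Figure D4:**
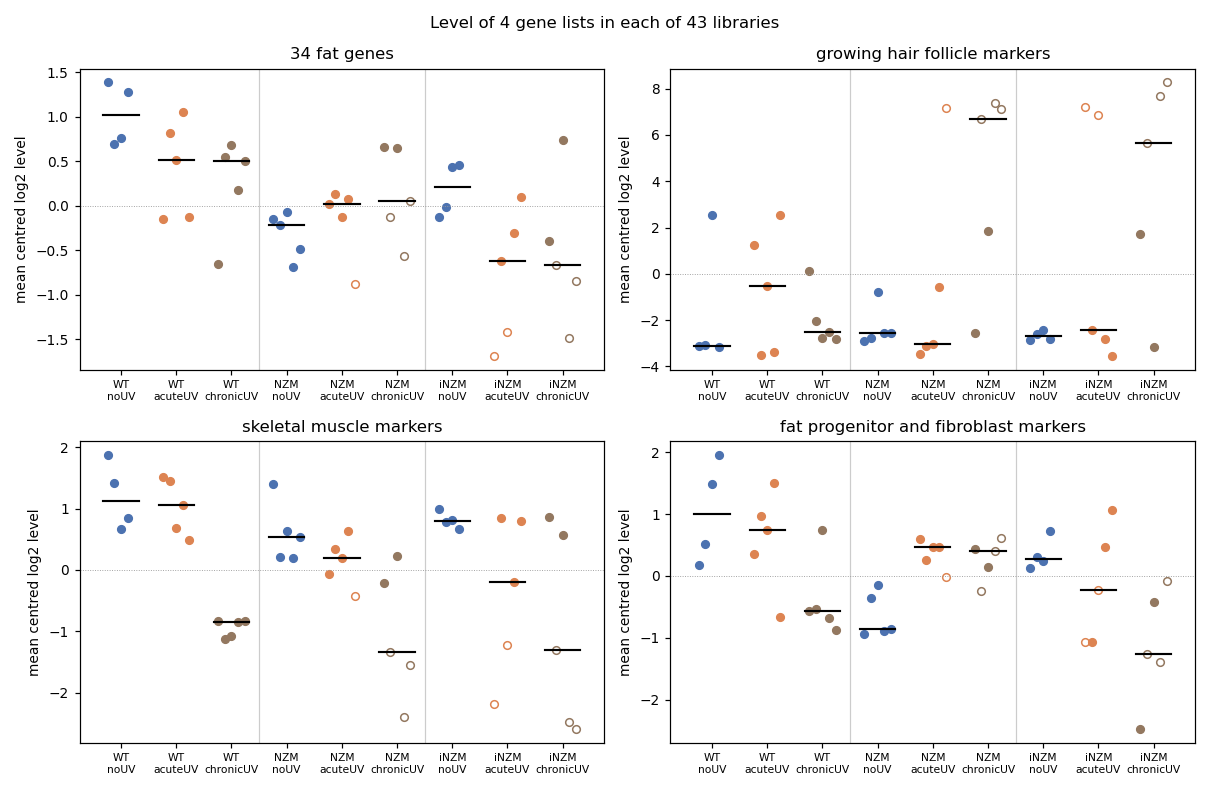
Mean centred log2 level per library of the 34 fat genes, the growing hair follicle, skeletal muscle, and fat progenitor and fibroblast markers, by strain and regimen, with 1 point per library, a black line at each group's median, and open points for the 9 libraries with a hair follicle score above 5. For the fat genes the unexposed WT libraries lie between 0.70 and 1.39 and the unexposed NZM libraries between -0.69 and -0.07.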

How the data were processed

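Poly-A RNA of mouse back skin was sequenced with paired reads of 151 bases in 43 libraries, placed in 9 groups by the strain and UVB labels. The authors deposited 1 table of normalised read counts per gene (a signal, read counts divided by a size factor for each library). Per the submitters' processing notes, STAR, HTSeq and DESeq2 were used with mm10. Their versions and settings are not given in the sources used here. Low values were whole multiples of 1 step per library. Division by the step recovered whole reads (tolerance 0.01) for 100% of values. Size factors lay between 0.6735 and 1.7503, and the step was near 1 in 4 libraries. Depth was 18490000 to 37760000 such reads. These limits cover counting error only.

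Values were tested as log2(value + 1), which understates changes of low genes, with limma 3.58.1 (trend) in R 4.3.3. Genes were kept when 4 or more libraries reached 10. All 9 groups shared 1 estimate of spread, 15 pairwise and 4 response contrasts were fitted over 19170 genes, and a call was a Benjamini-Hochberg adjusted p below 0.05. Scripts were tested on simulated data. All replicates were kept apart: over 82 pairs the chi-square per gene was 16.9 or more.

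Alternatives were a pseudocount of 8, no filter, TMM scaling, only the compared groups, a term for sample numbers of 46 or above, a follicle or muscle score as covariate, edgeR 4.0.16 and DESeq2 1.42.0 on the whole reads, and each library left out. Leaving out the 9 libraries with a follicle score above 5 was chosen after seeing the data. None of the 9 was a WT or unexposed library, so comparisons among those groups changed only through the shared estimate of spread. Gene positions and exon lengths come from GENCODE, and promoters from RefSeq. The 34 genes, 12 other lists with 172 genes (2 of them not analysed here) and the tests were chosen with earlier results of these data known. Values are given for Lep, Adipoq, Plin1, Cidec and Pparg and, for each UVB contrast and role, the called gene with the smallest adjusted p. Of each other list at most 2 genes per contrast are named, by the same rule. Some further genes of the 34 are shown beside them. Figures were drawn with matplotlib 3.10.9 and tables made with pandas 2.3.3 and numpy 2.4.6, under Python 3.11.15.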

Additional observations from a re-analysis of the deposited data

Results flagged for a closer look

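Single libraries stood far from the others of their group in 16 of 306 sets of values (Dixon's test at 95%), and chance alone gives about 1 in 20. The acute iNZM library 10 was far above its group for Retn (639.5), Cfd (18690 normalised reads), Plin1 (1836), Fabp4 (22550) and Adrb3 (285.7). The follicle-rich acute NZM library 5 was far below its group for Adipoq (623), Cidec (688.5), Cd36 (1901) and Dgat1 (1006). The chronic iNZM library 23 was far above for Aqp7 (164.3), Thrsp (629.3) and Pnpla3 (187.6). Single values were far off for Pparg in the unexposed NZM library 34 (751.5, highest), Cebpa in the acute WT library 50 (3465, lowest), Scd1 in the unexposed WT library 41 (164900, highest) and Adrb3 in the chronic WT library 29 (224.3, highest).

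The chronic response differed between NZM and WT in the test of the difference itself (limma, adjusted p below 0.05) for 9 genes. The log2 difference of responses was 4.84 for Lep, 3.19 for Adipoq, 2.76 for Retn, 3.54 for Cfd, 3.48 for Plin1, 2.88 for Cidec, 3.64 for Thrsp, 1.76 for Lipe and 3.07 for Adrb3.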

How the results depend on the processing

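Counts of called fat genes moved most in the UVB comparisons, and the cause was not tested. The counts over all genes under the settings below are not given here. The moves are therefore not set beside those of all genes. With only the compared groups in the fit, acute UVB called 7 genes in NZM, 8 in iNZM and 11 in WT, chronic UVB called 7 in NZM and 4 in iNZM, chronic against acute in WT called 12 with lower calls in the majority, NZM against WT after acute UVB called 8, and the chronic response of iNZM against NZM called 4. With the follicle score as covariate these were 5 for acute UVB in NZM, 10 for acute UVB in WT, 23 for chronic UVB in NZM, 11 for chronic UVB in iNZM (10 higher, turning the majority), 10, 12 and 16 for chronic against acute in NZM, iNZM and WT (in WT 11 lower, turning the majority), 9 and 4 for NZM against WT after acute and chronic UVB, 8 for iNZM against NZM after chronic UVB, 25 for the chronic response of NZM against WT and 11 for that of iNZM against NZM. With the muscle score as covariate they were 4, 9 and 10 for acute UVB in NZM, iNZM and WT, 14, 13 and 13 for chronic UVB in the same order (in iNZM 9 and in WT 10 higher, turning the majority), 9, 8 and 16 for chronic against acute, 5 for iNZM against NZM after chronic UVB and 5 for the chronic response of iNZM against NZM. Slc2a4 then turned to 0.18 (chronic UVB) and 0.19 (chronic against acute) and Car3 to 0.29 in WT. The muscle score of the chronic WT libraries did not overlap that of the other WT libraries. In WT this fit therefore cannot separate muscle content from chronic UVB.

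Without the 9 follicle-rich libraries the counts were 6, 7 and 10 for acute UVB in NZM, iNZM and WT, 13 for chronic UVB in iNZM (9 higher, turning the majority, with Slc2a4 at 0.043), 3, 7 and 13 for chronic against acute (in WT 7 lower, turning the majority) and 17 for the chronic response of NZM against WT. edgeR called 1 and 9 for acute UVB in NZM and iNZM, and 2 and 12 for chronic against acute in iNZM and WT. DESeq2 called 3 and 5 for acute and chronic UVB in NZM, 5 and 12 for chronic against acute in iNZM and WT, 5 for NZM against WT after acute UVB, 1 for iNZM against NZM after chronic UVB and 6 for its chronic response. In WT chronic against acute, both tools had 7 genes lower and 5 higher, turning the majority. Chronic UVB in NZM called 0 with no filter, 2 with TMM scaling and 2, both lower, with the sample number term, which called 1 for iNZM against NZM after chronic UVB. TMM scaling moved the median of all genes most for chronic against acute UVB in WT, where it fell by 0.0311.

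Leaving out 1 library gave counts from 0 to 1, 7 to 20 and 4 to 7 for acute UVB in NZM, iNZM and WT, from 0 to 3, 8 to 20 and 12 to 18 for chronic UVB, from 0 to 1, 0 to 2 and 7 to 11 for chronic against acute, from 12 to 19 and 1 to 5 for NZM against WT without UVB and after acute UVB, from 0 to 9 for iNZM against NZM after chronic UVB, from 6 to 10 for the chronic response of NZM against WT and from 0 to 11 for that of iNZM against NZM. In the other 5 comparisons the count stayed at 0. Over the 97 calls of single genes, 97 were kept with a pseudocount of 8, 96 with no filter, 97 with TMM, 75 with only the compared groups, 89 with the sample number term, 77 with the follicle score, 59 with the muscle score, 85 by edgeR, 92 by DESeq2 and 75 without the 9 libraries, and 51 were kept without any 1 library. No paired analysis was possible because the sample numbers are unique to each library and so pair none across groups. Depth did not bring any of the 34 genes to 0 reads in any library.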
